A study of Arabidopsis thaliana with 9 samples.

Results

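The 2 late-flowering mutants of this study were set together against wild type, to find transcripts that moved the same way in both. The comparison used all 9 of the 9 Affymetrix ATH1 arrays of the series, with 3 arrays for the HAP5 triple mutant, 3 for the constans mutant and 3 for the Columbia control. Each mutant's mean counted equally, whatever its spread, and the wild-type mean was subtracted. A probe set was described as shared where all 6 mutant arrays lay on one side of the 3 wild-type arrays, and 290 of the 14173 probe sets tested met that condition.

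All plants were Arabidopsis thaliana of 10 days, and all above-ground tissue was taken. They had been kept at 4 °C for 4 days and then grown on soil at 22 °C in long days, with 16 h light and 8 h dark. Tissue was harvested 14 h after lights on. The labels describe the HAP5 triple mutant as a T-DNA knock-out with Col-0 as its genetic variation, without naming the 3 genes. They name a SAIL insertion as the source of the constans mutant and give no background for it. The wild type was of the ecotype Col-1. The mutant label and the background of the seed stock therefore cannot be told apart for any change shared by both mutants. Nothing in the labels tells if the 3 arrays per genotype hold separate plant batches. The p-values then cover only the spread among arrays, which may be technical.

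HAP5 genes encode the NF-YC subunits of the NF-Y complex, which binds the CCAAT box of promoters. CONSTANS is a B-box protein that accumulates late in long days and activates the florigen gene FT in leaf veins, and NF-Y subunits bind DNA together with it. Loss of CONSTANS, or of several NF-YC genes together, delays flowering in long days. Probe sets for CO, FT and the NF-Y subunits could not be identified here, since none carried a gene name in the annotation used. The labels were therefore not checked against the mutated genes. Probe sets without a name were tested like the others, 6200 in all, and those of these genes may be among them.

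Across the arrays, median MAS5 signals were 33.1 to 37.0. MAS5 signal is the linear brightness of a probe set, which the authors had scaled to the same trimmed mean on every array. Rubisco activase (RCA), a marker of green tissue, had signals of 4944 to 6641 over the 9 arrays. The root hair genes EXPA7 and EXPA18 stayed at or under 15 and 8.13, while PYK10, a beta-glucosidase gene known from roots and hypocotyls, had 174 to 286. The 25S ribosomal RNA control probe set varied between arrays, at 15.9 to 42.4 in the triple-mutant arrays, 56.5 to 1152 in the constans arrays and 22.6 to 418 in wild type. Its part in the results was not tested beyond the fits that use it.

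Only 4 probe sets were both called and apart from wild type in all 6 mutant arrays, and all 4 were higher in the mutants (0.0282% of those tested). They were 245712_at and 259560_at, which have no gene name in the annotation, 245218_s_at, which it matches to more than 1 gene, and AT5G19240, which encodes a predicted membrane-anchored protein. The rises of the mean of both mutants over wild type ran from 1.54-fold to 2.87-fold. A call here is an adjusted p under 0.05 in limma (Benjamini-Hochberg over the 14173 probe sets). Each value has n = 3 arrays per genotype.

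Probe set 245712_at had signals of 122, 114 and 118 in the triple-mutant arrays and 97.1, 121 and 99.9 in the constans arrays, against 48.8, 34.0 and 35.2 in wild type. Every mutant array was about as bright as the other mutant arrays, and the brightest wild-type array stayed well below the dimmest of them. The rise was 1.52 ± 0.13 (SE) on the log2 scale, or 2.87-fold, with a limma adjusted p of 0.000253. Taken alone, the triple mutant was 1.60 ± 0.15 above wild type (limma adjusted p = 0.000506) and the constans mutant 1.44 ± 0.15 (0.000276). The difference between the mutants was 0.16 ± 0.15 and did not pass (0.629). Of the 8 calls this was the one that held in all 21 alternative fits.

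Probe set 259560_at had signals of 127, 143 and 125 in the triple-mutant arrays, 168, 169 and 186 in the constans arrays and 96.9, 90.9 and 88.5 in wild type. The genotypes formed 3 separate levels, with the triple mutant between wild type and the constans mutant. Its rise was 0.72 ± 0.10 on the log2 scale (1.64-fold, limma adjusted p = 0.0107). The call ended without wild type 1, 2 or 3, and the highest adjusted p among the fits that left out 1 array was 0.115. The 2 mutants differed by -0.40 ± 0.11, triple mutant minus constans mutant, which did not pass (limma adjusted p = 0.0656).

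AT5G19240 was the only called and separated probe set that matched a single named gene. Its signals were 325, 348 and 316 in the triple-mutant arrays, 430, 380 and 375 in the constans arrays and 221, 270 and 212 in wild type. Wild type 2 came nearest to the mutants. The rise was 0.63 ± 0.10 on the log2 scale (1.54-fold, limma adjusted p = 0.0300). The triple mutant alone did not pass against wild type (0.50 ± 0.11, adjusted p = 0.244), and the constans mutant alone did (0.76 ± 0.11, 0.00307). The call on AT5G19240 ended without triple mutant 1 or 2, constans 2 or 3, or wild type 1 or 3, and the adjusted p in the fits that left out 1 array ran from 0.0400 to 0.154. It also ended with median centring (0.0570) and when dim probe sets were kept in (0.158).

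Probe set 245218_s_at had signals of 173, 171 and 129 in the triple-mutant arrays, 135, 146 and 156 in the constans arrays and 88.3, 97.2 and 74.2 in wild type. The mutants overlapped each other, and neither overlapped wild type. The rise was 0.81 ± 0.12 on the log2 scale (1.75-fold, limma adjusted p = 0.0300), and it was called in each mutant alone (0.86 ± 0.14 and 0.76 ± 0.14, adjusted p = 0.0403 and 0.0156). The call on the mean of both mutants ended without triple mutant 1 or 2, constans 2 or 3, or any wild-type array, with an adjusted p of 0.0173 to 0.130 in the fits that left out 1 array. With the 25S signal as a covariate all 4 separated probe sets stayed called. Without the 3 arrays of highest 25S signal only 245712_at did, and the limma adjusted p of AT5G19240, 259560_at and 245218_s_at was 0.126, 0.126 and 0.215.

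The calls also included 4 probe sets that did not meet the condition for shared, all lower in the mean of both mutants. In AT2G20670, 260287_at and 264650_at each mutant had a lower mean than wild type, but by unequal amounts. In 260856_at the mutants changed in opposite directions. These 4 probe sets fall outside the rule for named genes, having been picked once their values were known. AT2G20670 had signals of 128, 63.2 and 53.6 in the triple-mutant arrays, 24.5, 19.2 and 20.9 in the constans arrays and 132, 105 and 131 in wild type. The constans arrays stood far below wild type, and triple mutant 1 lay within the wild-type range. Its change was -1.60 ± 0.22 on the log2 scale (limma adjusted p = 0.0116). The triple mutant alone was at -0.69 ± 0.25 and the constans mutant alone at -2.51 ± 0.25.

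Probe set 260856_at had signals of 753, 732 and 700 in the triple-mutant arrays, 227, 169 and 159 in the constans arrays and 591, 660 and 661 in wild type. Neither mutant overlapped wild type, and they lay on opposite sides of it. Its call on the mean of both mutants (-0.80 ± 0.11, limma adjusted p = 0.0107) came with a change of 0.19 ± 0.12 in the triple mutant and of -1.80 ± 0.12 in the constans mutant. Probe set 260287_at had 174, 158 and 120 in the triple-mutant arrays, 53.8, 39.1 and 57.5 in the constans arrays and 210, 168 and 182 in wild type, with the triple mutant overlapping wild type (change of the mean of both -1.11 ± 0.15, limma adjusted p = 0.0107). In 264650_at it was the triple mutant that stood low, at 58.8, 47.9 and 77.0, against 165, 169 and 159 in the constans arrays and 163, 208 and 166 in wild type (-0.84 ± 0.14, 0.0472). In these 4 the difference between the mutants passed (limma adjusted p from 9.31e-07 to 0.000898). The calls on AT2G20670, 260287_at and 260856_at each ended without any 1 of the 3 wild-type arrays, and that on 264650_at in all fits that left out 1 array but the one without triple mutant 3.

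**Figure D1:**
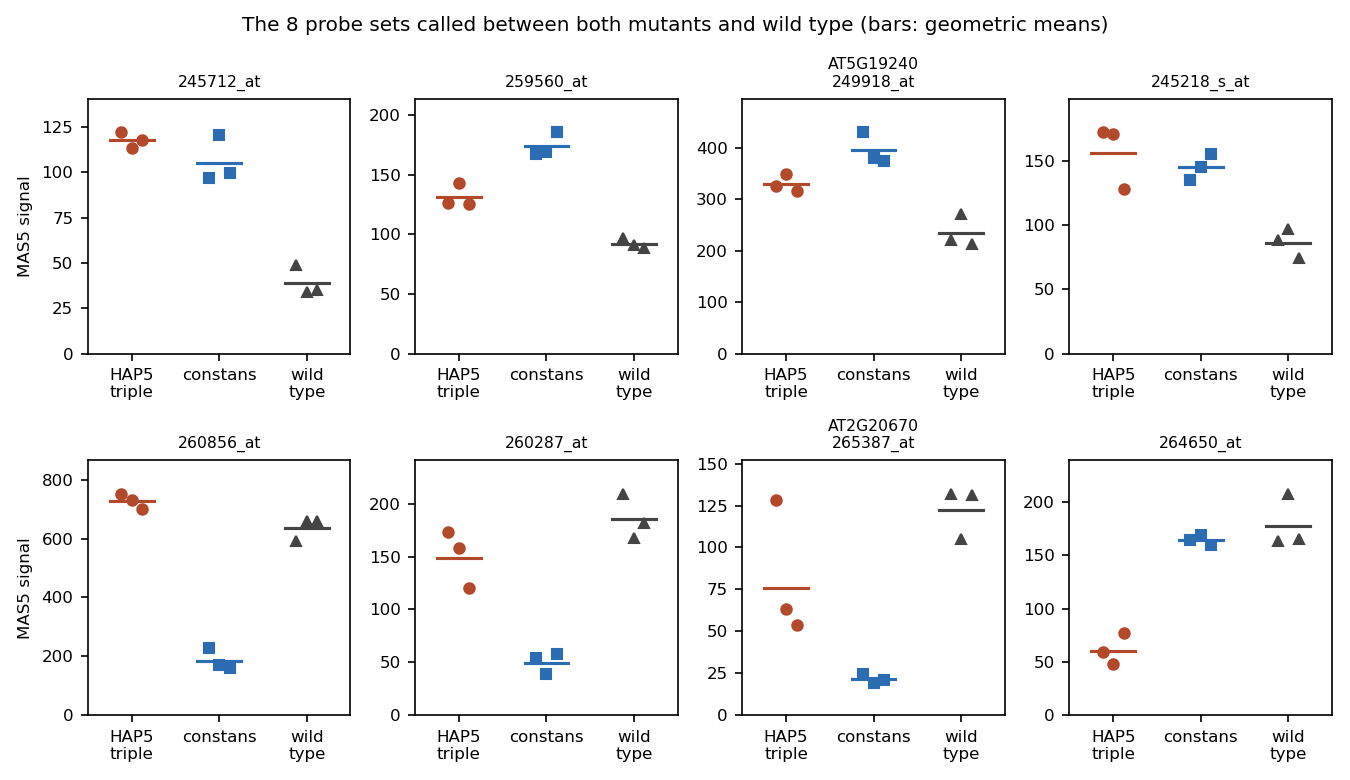
MAS5 signal (y axis, linear from 0) of the 8 called probe sets in each array, with the 3 arrays of a genotype as points and their geometric mean as a bar. In the upper row both mutants lie above wild type, by 1.54-fold to 2.87-fold for their mean, and in the lower row only 1 mutant stands clearly away from wild type.

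In all, 8 probe sets were called, 0.0564% of those tested, with 4 higher (0.0282%) and 4 lower (0.0282%). An unadjusted p under 0.05 was met by 829 (5.85%), of which 499 were higher and 330 lower. Against wild type alone the triple mutant had 13 calls (0.0917%) and the constans mutant 198 (1.4%). All 6 mutant arrays lay above wild type in 162 probe sets (1.14% of those tested) and below it in 128 (0.903%). With each array centred on its median this split was 138 above and 163 below, and with quantile normalization 157 above and 154 below, so neither direction can be called the larger. The count of calls was 1 without wild type 1, 2 without wild type 2, 1 without wild type 3 and 5 without triple mutant 1. Separated calls above wild type, 4 in the main fit, became 1 without wild type 1 or 3. They became 2 without wild type 2, constans 2, or triple mutant 1 or 2. Without triple mutant 1 the separated calls below wild type became 2.

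The separation was often narrow. In the 162 probe sets above wild type, the dimmest mutant array exceeded the brightest wild-type array by a median of 0.05 on the log2 scale. In the 128 below it the corresponding median gap was -0.04. The narrowest gap that still counted, in 252065_at, was 4.22e-05, and 246864_at fell just outside with a tie between 1 constans and 1 wild-type array. On the lower side the narrowest gap was 0.000399, in 252362_at, while AT5G64150 fell just outside. The median change of the mean of both mutants was 0.34 in the group above and -0.29 in the group below, and 6 and 2 of them changed by at least 2-fold. No probe set of the group below was called by limma, while 81 of the 128 had an unadjusted p under 0.05, as had 120 of the 162 above. These probe sets were picked on the same arrays for lying apart from wild type. That choice favours a low p, so these 2 counts are no independent evidence.

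Within the shared probe sets the constans mutant often stood farther from wild type than the triple mutant. Its change was the larger of the pair in 117 of the 162 higher and 79 of the 128 lower probe sets. How often this held over all probe sets tested was not counted. In the higher group the median change was 0.29 (triple) and 0.38 (constans), and in the lower group -0.25 and -0.32. Against wild type alone, the triple mutant had calls in 2 of the 162 and in none of the 128, where 0.0917% of all probe sets tested were called. The constans mutant had calls in 24 and 5 of them, where 1.4% of all probe sets were called. Both comparisons share the wild-type arrays. The probe sets were picked on these arrays for lying apart from wild type. That choice favours calls against wild type, so these counts are no independent evidence. A direct call between the mutants was made for 4 of the 162 and none of the 128, where 3.38% of all probe sets tested were called.

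Of the 290 shared probe sets 163 matched a single gene, 8 matched several and 119 had no name. The named genes below are the first 15 in each direction by the rule, and only AT5G19240 among them was called. Just outside the threshold lay AT5G18310 and ATPMEPCRB, a pectin methylesterase gene also known as PME41, with limma adjusted p of 0.0550 and 0.0585. AT5G18310 had signals of 148, 156 and 166 in the triple-mutant arrays, 212, 215 and 208 in the constans arrays and 120, 132 and 130 in wild type. ATPMEPCRB had 152, 147 and 152 in the triple-mutant arrays, 341, 230 and 213 in the constans arrays and 99.0, 128 and 116 in wild type. In both genes the triple mutant lay between the others without overlap, and the constans mutant was the higher. The triple mutant minus the constans mutant was -0.43 ± 0.10 and -0.77 ± 0.16 on the log2 scale, differences that passed (limma adjusted p = 0.0321 and 0.0158).

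AT3G10720, also a pectin methylesterase gene, had nearly the same mean in both mutants. Pectin methylesterases remove methyl groups from cell wall pectin and so change its stiffness. Its signals were 253, 269 and 253 in the triple-mutant arrays, 325, 282 and 205 in the constans arrays and 167, 182 and 140 in wild type. Constans 3 came nearest to wild type. The change of the mean of both was 0.69 ± 0.13 on the log2 scale (limma adjusted p = 0.0841), and the mutants differed by -0.04 ± 0.15.

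AT2G36970, AT1G55450, AT1G03400 and AT4G20860 encode enzymes and had higher values in all mutant arrays. AT2G36970, of the UDP-glycosyltransferase family, had signals of 35.2, 51.1 and 46.8 in the triple-mutant arrays, 47.0, 45.8 and 52.7 in the constans arrays and 29.3, 27.6 and 25 in wild type. Its change was 0.76 ± 0.16 (limma adjusted p = 0.129), with the mutants overlapping. AT1G55450, a methyltransferase gene, had a change of 0.42 ± 0.09, AT1G03400, of the 2-oxoglutarate-dependent oxygenases, 0.44 ± 0.11, and AT4G20860, of the berberine bridge enzyme family, 0.83 ± 0.22, with limma adjusted p of 0.199, 0.292 and 0.340. None of these passed.

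AT2G23200 and AT5G05300 encode a receptor-like protein and a peptide. AT2G23200, a receptor-like kinase gene, had signals of 67.3, 73.0 and 67.7 in the triple-mutant arrays, 110, 78.8 and 86.4 in the constans arrays and 63.8, 47.1 and 41.2 in wild type. Wild type 1 came within a few units of the dimmest mutant array, and the change of 0.67 ± 0.15 did not pass (limma adjusted p = 0.193). AT5G05300, which encodes a small peptide related to the floral abscission signal IDA, was dim, with means of 17.7, 32.7 and 11.8 in the triple-mutant arrays, the constans mutant and wild type. It reached the limit for testing, 18.6, in the constans mutant only. Its change was 1.03 ± 0.23 (limma adjusted p = 0.185), and 0.54 with a pseudocount of 16.

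COR15A, whose product protects chloroplast membranes in the cold, had signals of 332, 308 and 284 in the triple-mutant arrays, 286, 356 and 551 in the constans arrays and 148, 238 and 247 in wild type. Constans 3 was the highest array and wild type 1 the lowest, and the mutants overlapped. The change was 0.73 ± 0.19 on the log2 scale and did not pass (limma adjusted p = 0.292). The remaining genes of the higher group by the rule were AT1G19380, AT1G53710, AT1G79160 and AT3G01960, with changes of 0.71 ± 0.14, 0.82 ± 0.21, 0.77 ± 0.19 and 0.90 ± 0.23 and adjusted p from 0.0883 to 0.288. In wild type the last 3 of these had mean signals of 14.1, 22.3 and 13.3. AT1G53710 and AT3G01960 were thus under the limit of 18.6 in wild type and entered the test through the mutants.

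On the lower side the first gene by p was JMT, which encodes the enzyme that makes methyl jasmonate from jasmonic acid. Its signals were 25.3, 28.5 and 26.7 in the triple-mutant arrays, 34.4, 24.8 and 22.2 in the constans arrays and 52.8, 47.6 and 41.5 in wild type. Both mutants stood at about the same level, with means of 26.8 and 26.6, against 47.1 in wild type. The change was -0.82 ± 0.18 on the log2 scale and did not pass (limma adjusted p = 0.165), and the mutants differed by 0.01 ± 0.21.

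AT2G31790 and AT1G06000 encode glycosyltransferases and were lower in all mutant arrays. AT2G31790, known as UGT74C1 from glucosinolate synthesis, had signals of 325, 335 and 334 in the triple-mutant arrays, 275, 260 and 288 in the constans arrays and 347, 369 and 383 in wild type. AT1G06000, which encodes a flavonol rhamnosyltransferase, had 659, 618 and 542 in the triple-mutant arrays, 650, 504 and 476 in the constans arrays and 750, 752 and 696 in wild type. The changes were -0.28 ± 0.08 and -0.36 ± 0.11 on the log2 scale (limma adjusted p = 0.448 and 0.458). In AT2G31790 the constans mutant lay below the triple mutant in every array, and in AT1G06000 the mutants overlapped.

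AT5G17010, a sugar transporter gene, was lower in the triple mutant than in the constans mutant, with signals of 101, 96.8 and 103, against 133, 112 and 122 in the constans arrays and 148, 144 and 140 in wild type. Its change was -0.38 ± 0.10 (limma adjusted p = 0.292). AT5G02870, which encodes protein L4 of the large cytosolic ribosomal subunit, had means of 2758, 3000 and 3409 in the triple-mutant arrays, the constans mutant and wild type, with a change of -0.24 ± 0.09 (0.694). The other 10 genes that the rule gave were AT2G23910, AT5G47050, AT1G13650, AT5G02830, AT4G16880, AT1G15730, AT4G32030, AT3G05180, AT1G55090 and AT2G31240. Their changes ran from -0.75 to -0.28 on the log2 scale and their limma adjusted p from 0.176 to 0.703.

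**Figure D2:**
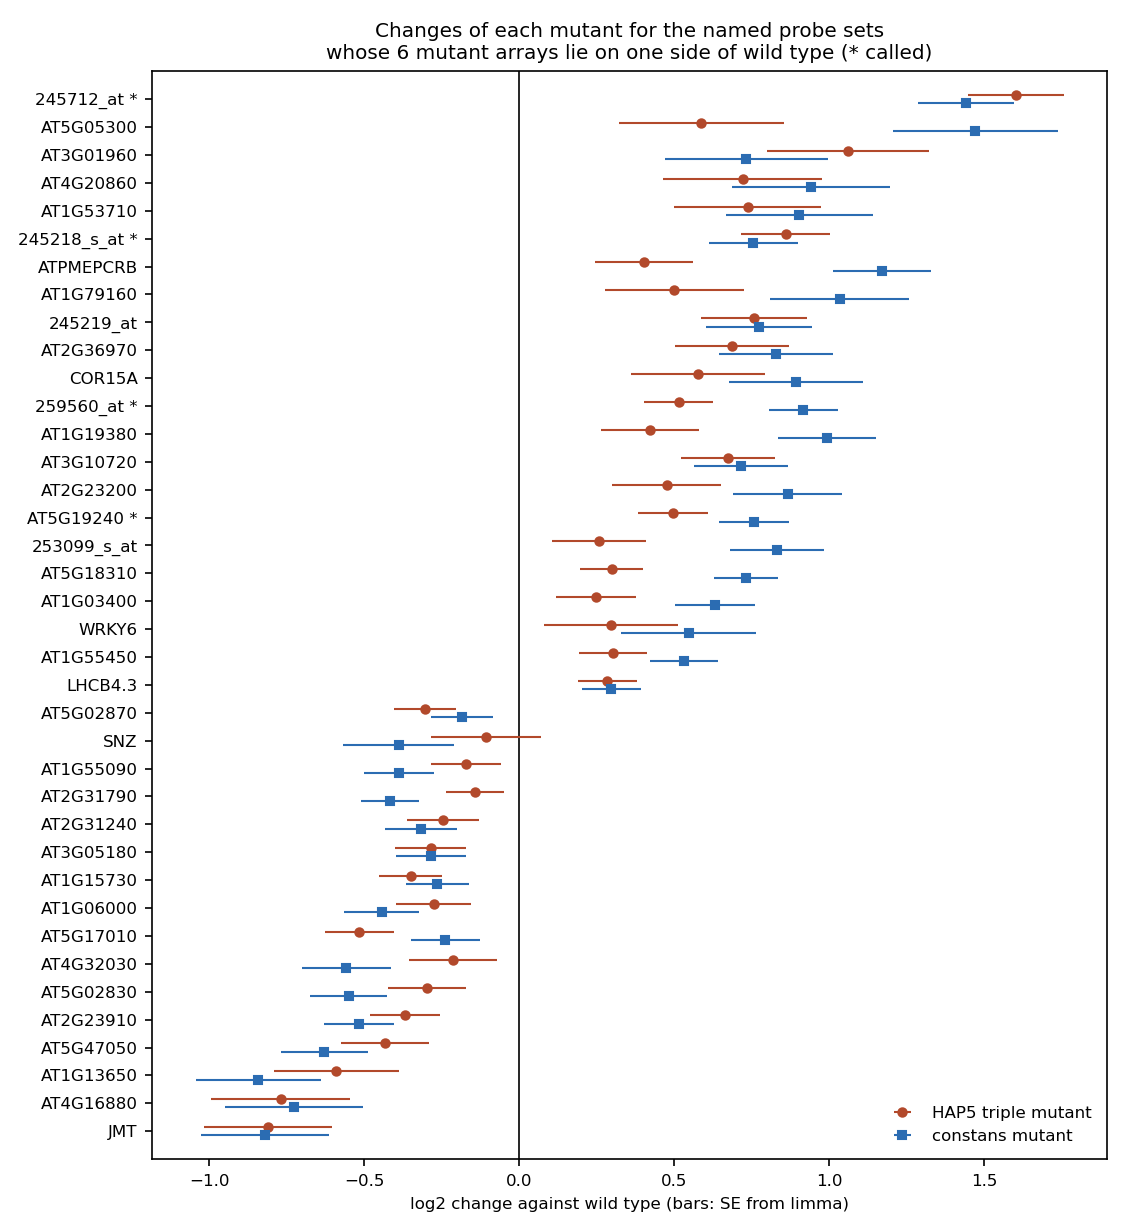
Log2 change against wild type (x axis) of the HAP5 triple mutant (circles) and the constans mutant (squares), with SE bars from limma, for the named probe sets whose 6 mutant arrays lie on one side of wild type. Both mutants share the wild-type arrays, and the side of 0 is fixed by how the probe sets were chosen. ATPMEPCRB and AT5G18310 are the named genes whose mutants differed by a call, while the markers of JMT, AT3G10720 and LHCB4.3 nearly coincide.

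Some shared probe sets lay next to each other in the genome. Gene order was taken from TAIR10.1, and 169 of the 290 could be placed. How many neighbours any 169 probe sets would have was not counted, so the pairs are described without a claim of clustering. No positions are given because the files name no build. Probe sets 245218_s_at and 245219_at match 2 genes each of the NB-LRR type of disease resistance gene, AT1G58848 with AT1G59218 and AT1G58807 with AT1G59124, and the copies cannot be told apart by their probe sets. The copies alternate on chromosome 1 with copies of a gene for ribosomal protein S2, matched by 245841_s_at. That probe set also matches XW6, which lies outside these neighbours, so its signal cannot be assigned to them alone. All 3 probe sets were higher in all 6 mutant arrays. This run of genes was singled out after its values were seen.

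Probe set 245219_at had signals of 444, 510 and 462 in the triple-mutant arrays, 436, 426 and 584 in the constans arrays and 343, 310 and 204 in wild type. The mutants overlapped each other and wild type 3 was the lowest array. Its change of 0.77 ± 0.15 on the log2 scale was near that of 245218_s_at and did not pass (limma adjusted p = 0.0883). The mutants differed by -0.02 ± 0.17 in 245219_at and by 0.10 ± 0.14 in 245218_s_at. The ribosomal protein probe set 245841_s_at had 3180, 3076 and 2976 in the triple-mutant arrays, 3420, 3645 and 3291 in the constans arrays and 2898, 2762 and 2805 in wild type, a change of 0.21 ± 0.08 (adjusted p = 0.785). Of the 4 tested probe sets of this run, the one remaining, 261034_s_at, was dim at 18.9 in wild type, and its mutant arrays overlapped wild type. It also matches AT1G17450, which lies outside the run.

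**Figure D3:**
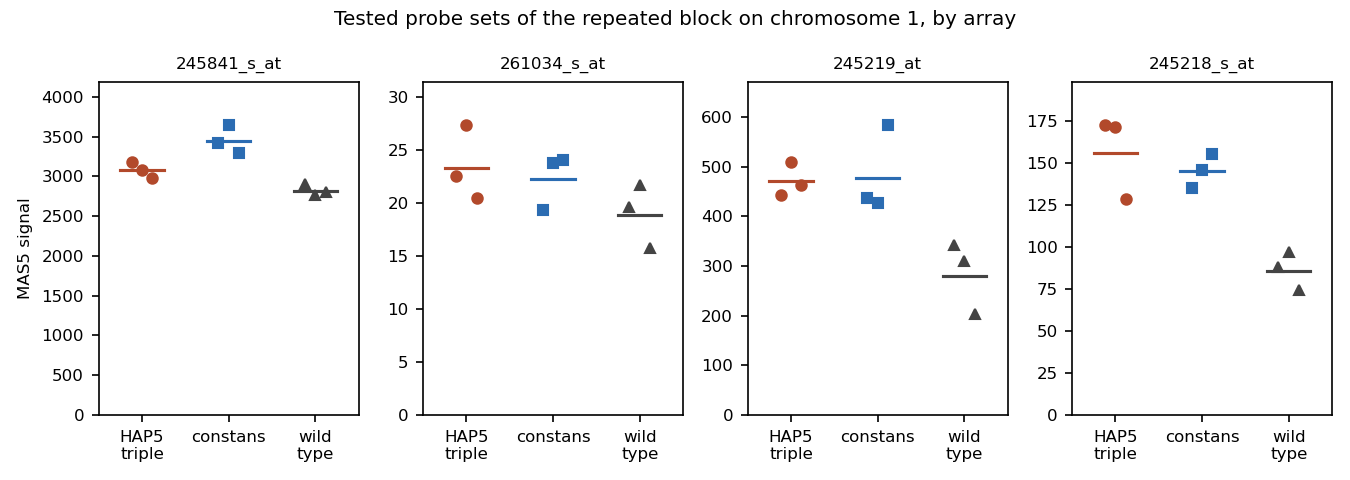
MAS5 signal (y axis, linear from 0) in each array for the 4 tested probe sets of the run of repeated genes on chromosome 1, with bars at the geometric means. In 245841_s_at, 245219_at and 245218_s_at all mutant arrays lie above wild type, and in 261034_s_at they overlap it. Probe sets 245841_s_at and 261034_s_at also match genes outside the run.

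Shared probe sets also neighboured each other, at most 3 genes apart, at AT4G02330 (ATPMEPCRB) with AT4G02340, at AT4G37550 with 253099_s_at, and at AT2G47610 with 251184_at. Each pair had the same direction. The other probe sets tested between the last 2 were not apart from wild type, among them 266482_at, which matches the same genes as 251184_at. AT4G02340, an epoxide hydrolase gene, had a change of 0.18 ± 0.09 and AT4G37550 one of 0.16 ± 0.09, with limma adjusted p of 0.859 and 0.870. AT2G47610, which encodes a protein of the large ribosomal subunit, had -0.18 ± 0.08 (0.823). None of these probe sets passed. Within 5 genes on either side of these pairs 4, 1 and 2 further probe sets were tested, and none was apart from wild type.

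Lists of genes from pathways of flowering, stress, nutrition and photosynthesis were also searched for shared changes. Of 207 tested list members 6 were apart from wild type in all mutant arrays, a share near the 2.05% of all probe sets tested. They were COR15A, ATPMEPCRB, JMT, LHCB4.3, WRKY6 and SNZ, and none of the 6 was called. AT2G20670 was the only called member of any list. LHCB4.3, an antenna protein gene of photosystem II, had signals of 868, 804 and 815 in the triple-mutant arrays, 780, 919 and 814 in the constans arrays and 686, 680 and 675 in wild type. Its change was 0.29 ± 0.08 (limma adjusted p = 0.392), and the 2 mutants had the same mean within their spread. The related LHCB4.1 and LHCB4.2 had changes of 0.01 ± 0.13 and 0.04 ± 0.09.

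Of 7 tested flowering genes 6 had a lower mean over both mutants, with a median change of -0.25, against -0.00 over all probe sets tested. None was called and 1 had an unadjusted p under 0.05. SNZ, an AP2-type floral repressor, had signals of 35.9, 34.9 and 33.6 in the triple-mutant arrays, 30.1, 31.6 and 24.6 in the constans arrays and 36.4, 39.7 and 36.4 in wild type. The gap between triple mutant 1 and the lower wild-type arrays was small, and the change of -0.25 ± 0.16 did not pass (limma adjusted p = 0.911). Its relative SMZ had -0.33 ± 0.19 and the floral promoter AGL24 -0.10 ± 0.20. The clock-associated gene GI had means of 36.4, 9.09 and 31.0 in the triple-mutant arrays, the constans mutant and wild type, with the mutants on opposite sides of wild type and constans 2 at 2.07. AGL87, a MADS-box gene, had 60.5, 114 and 114, and the mutants differed (limma adjusted p = 0.00433), with the triple mutant the lower.

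Among 7 cold and dehydration genes 6 had a higher mean in the mutants, with a median change of 0.44, and 3 had an unadjusted p under 0.05. None was called. Without constans 3, which was high in COR47 (518, against at most 242 in the other constans arrays), the list median was 0.20 and the change of COR47 0.26. Besides COR15A these were COR47, a dehydrin gene, at 0.44 ± 0.20, and the dehydration-induced DI21 at 0.67 ± 0.16 (limma adjusted p = 0.827 and 0.252). STZ, a zinc-finger repressor of stress responses, had a change of 0.58 ± 0.21 in the triple mutant, which did not pass (limma adjusted p = 0.634), and of -1.11 ± 0.21 in the constans mutant, which did (0.0153). Of 8 defence genes 7 had a higher mean and none was called, with a median of 0.31. RING1 and PUB24, both ubiquitin ligase genes, had changes of -0.14 and 0.01 in the triple mutant and of 0.81 and 0.98 in the constans mutant, and the mutants differed in both (limma adjusted p = 0.000232 and 0.00810).

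For other lists the mean over both mutants joined opposite values. The median change of 12 genes of rapid calcium and stress responses was -0.44, with the triple mutant at 0.39 and the constans mutant at -1.18. Several of its members were put in the list because earlier results of the same arrays had shown them, so their direction is no independent evidence. The median of 69 plastid-encoded genes was -0.10, with -0.35 for the triple mutant alone and 0.17 for constans. No member of either list was called or apart. The 25S ribosomal RNA signal was at most 42.4 in the triple mutant and at least 56.5 in the constans mutant. With it as a covariate the plastid median over both mutants was -0.09. The plastid median of each mutant alone was not taken in that fit, so how those depend on 25S was not tested. The plastid median was -0.25 without wild type 1 and 0.00 without constans 1, the extremes over the arrays left out in turn.

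The family and pathway lists were matched by symbol or synonym, with some genes, such as AT1G47400 and AT2G20670, named only by locus. Other genes that the annotation names only by locus, such as AT2G36970, AT2G31790, AT1G06000 and AT3G10720, are not in them. Among the listed members, none of 24 UDP-glycosyltransferase genes, 10 cytochrome P450 genes, 7 glutathione transferase genes or 7 bHLH genes was called or apart, and their medians were -0.03, 0.12, -0.03 and 0.04. Of 6 WRKY genes, WRKY6, a regulator of senescence and phosphate uptake, had higher values in all mutant arrays, with means of 29.1, 34.6 and 23.7 and a change of 0.42 ± 0.19 (limma adjusted p = 0.827). Of 4 iron genes none was called on the mean of both mutants. AT1G47400 was called in the triple mutant alone (1.13, limma adjusted p = 0.0309) and between the mutants (0.000502). The medians of the 4 were 0.75 in the triple mutant, -0.20 with constans and 0.25 over both. The 5 carbon status genes, which include AT2G20670, had a median of -0.03. The medians of the small lists of auxin response, gibberellin, heat and protein folding, and glucosinolate genes were 0.17, -0.03, -0.13 and -0.13. None of their listed members was called or apart. The glucosinolate median joined opposite values, 0.16 in the triple mutant and -0.42 with constans. Of 18 listed cell wall genes, 12 had a higher mean, and ATPMEPCRB was the only one of the 18 apart from wild type. When each array in turn was left out, which was added after the values were seen, the median changed sign for the UDP-glycosyltransferase, glutathione transferase, bHLH, gibberellin and carbon status lists.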

How the data were processed

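The deposited table holds intensity values on a linear scale, the MAS5 signal of 22810 probe sets on 9 arrays. It was made with MAS5 and GCOS, per the submitters' processing notes, and their versions are not given in the sources used here. The trimmed mean was close to 100 on each array, so the deposited signals had been scaled. Total RNA was labelled with biotin, per the labels. No reads were counted, and the number of arrays limits the precision.

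The 64 AFFX control probe sets were left out. Signals under the pooled 10th percentile (1.03) were set to it before log2. Probe sets entered the test if their geometric mean in 1 genotype or more was at the 40th percentile of group means (18.6) or above. In the platform annotation 13513 probe sets have 1 gene, 503 have several and 8730 have none here, and 13436 single names matched a TAIR10.1 locus.

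All 9 arrays were fitted in limma 3.58.1 (R 4.3.3) by genotype, with no covariate, 6 residual degrees of freedom and eBayes with an intensity trend, and the method was tested on simulated data. Tables and plots used Python 3.11.15, pandas 2.3.3 and matplotlib 3.10.9. Adjusted p-values are Benjamini-Hochberg, over all probe sets of each comparison. The genes named were, in each direction, 15 that matched 1 gene and were apart from wild type, called ones first and then by p, with up to 4 separated members of each list and up to 2 called probe sets without a name. Probe sets that fall outside this rule are named as chosen after their values were seen, as are 252065_at, 246864_at and list members that were not apart. The comparison, the members and the gene lists were chosen with earlier results of these data known. Of 32 lists, 19 had 3 or more tested members, and those with fewer are described only through a member named above.

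Other fits used quantile normalization, no floor, median centring, a pseudocount of 16, no filter, a filter at the 60th percentile, no trend, array weights, the 6 mutant arrays as 1 group, the replicate number as a block, the log2 25S signal as a covariate, leaving out the 3 arrays with a 25S signal above 400, and leaving out each array in turn.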

Additional observations from a re-analysis of the deposited data

Results flagged for a closer look

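The difference between the mutants themselves, triple mutant minus constans mutant, passed in several probe sets of the report (limma, Benjamini-Hochberg over all probe sets tested). Where both mutants were above wild type it was -0.43 in AT5G18310 and -0.77 in ATPMEPCRB on the log2 scale, so the constans mutant was the higher. Among probe sets called on the mean of both mutants it was 1.59 in 260287_at, 2.00 in 260856_at and 1.82 in AT2G20670, where the constans mutant was the lower, and -1.45 in 264650_at, where the triple mutant was the lower. Among the list members given by name it was -0.91 in AGL87, -0.95 in RING1, -0.97 in PUB24, -0.43 in LHCB4.2, 1.37 in AT1G47400 and 1.68 in STZ.

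The 25S ribosomal RNA control, which no comparison used as an outcome, was brighter in constans 2 and 3 (1152 and 1079) than in any wild-type array.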

How the results depend on the processing

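Quantile normalization, median centring, no floor and a pseudocount of 16 left each count within 1.5 times its value. With no filter the calls numbered 7, of which 2 were among the 8. The 8 calls became 1 with no intensity trend and 1 with the 6 mutant arrays as 1 group, in both cases 245712_at, and 48 with array weights, 25 with the 25S covariate and 4, of which 1 was among the 8, after dropping the 3 arrays brightest in 25S, which leaves 1 constans array, assumed to vary like the others. Calls with all mutant arrays above wild type numbered 4, against 1 with no trend, 1 with the mutants as 1 group, 18 with array weights and 11 with the 25S covariate. Calls with all mutant arrays below wild type numbered 0, against 4 with no filter on dim probe sets, 4 with array weights and 1 after dropping those 3 arrays. Separated calls whose mutants also differed numbered 0, against 1 with no filter, 1 with the filter at the 60th percentile, 7 with array weights, 3 with the 25S covariate and 1 after dropping those 3 arrays. Over the 9 fits that left out 1 array these 4 counts ran from 1 to 12, 1 to 5, 0 to 2 and 0 to 2. The cause of these shifts was not tested.

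With the replicate number as a block the 4 counts were 25, 9, 0 and 3, and all 8 calls were among the 25. Correlations of same-numbered arrays' deviations from their group means ran from -0.04 to 0.23, and an array correlated best with its own number in 9 of 18 cases. Not every pair exceeded 0.1, and the labels name no shared batch, so the block was not taken as a pairing. None of the 42 probe sets refitted under each alternative changed direction. Most of them had all mutant arrays above, or all below, every wild-type array. For those, leaving out arrays or pooling the mutants cannot reverse the direction, so its constancy in such fits is no evidence of stability. Over the 42 probe sets and their alternative fits a call was lost 62 times and gained 27 times.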

Other observations

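Some dim probe sets, chosen after their values were seen, also had all mutant arrays above wild type, and none of them passed. AT1G10690, which encodes a small inhibitor of cyclin-dependent kinases, had signals of 17.5, 22.4 and 19.1 in the triple-mutant arrays, 9.31, 11.0 and 13.4 in the constans arrays and 6.28, 9.06 and 2.43 in wild type, a change of 1.51 ± 0.42 on the log2 scale (limma adjusted p = 0.364). All its constans and wild-type arrays were under the limit for testing, 18.6, so AT1G10690 entered the test through the triple mutant only. AT5G03390 had a change of 1.28 ± 0.36 (0.436), with wild type 2 at 4.47 and the other wild-type arrays at 15.7 and 15.3. Its wild-type arrays were thus also under the limit, and it entered the test through the mutants. SWEET4, a sugar exporter gene, had a change of 0.70 ± 0.23 (0.590).

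Lower in all mutant arrays, and likewise chosen afterwards, were OTP84 and CRR21, which encode pentatricopeptide proteins that edit plastid transcripts, and CCB3, needed to attach haem to plastid cytochrome b6. Their changes were -0.27 ± 0.12, -0.25 ± 0.10 and -0.29 ± 0.13 on the log2 scale, with limma adjusted p of 0.830, 0.759 and 0.844. Among higher ones was PMEPCRF, again a pectin methylesterase gene, at 0.39 ± 0.11 (0.448). Other members of these families were not counted here.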
